A study of Mus musculus with 7 samples.

Results

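The genes described here are the TAM receptor tyrosine kinases Mertk and Axl, their ligands Gas6 and Pros1, and 6 other genes of the uptake of dying cells and debris: Lrp1, Gulp1, Cd36, Msr1, Sirpa and Cd47. They were chosen by name, and all 10 have a row among the 23420 genes of the count table. RNA was sequenced from microglia, the brain's resident macrophages, which were sorted from mouse cortex on postnatal day 30. The 4 cKO libraries are of Tmem119creErt2+ Srgap2f/f mice, which carry floxed Srgap2 alleles and a tamoxifen-inducible Cre driven from Tmem119, a gene of mature microglia. The 3 WT libraries are of Srgap2f/f littermates without the Cre. Mice of both groups were given tamoxifen at 75 ug per g in 2 doses, at postnatal days 8 and 10, and cells were sorted as CD11b+, CD45low and CX3CR1+. Each library is 1 numbered mouse. The Cre is present only in cKO, so its own effect and that of the Srgap2 deletion cannot be told apart. The comparison addresses how microglial gene expression differs when Srgap2, which encodes an F-BAR protein acting on membranes and actin, is lost in the juvenile brain.

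Phagocytes find dying cells by the phosphatidylserine that these cells expose. Gas6 and protein S (Pros1) bind it through a domain carboxylated in a vitamin K-dependent step and bridge it to the TAM kinases, of which Mertk is the main one on resting microglia and Axl is known to be induced in inflammation. LRP1 is a large endocytic receptor that binds calreticulin on target cells and, through its cytoplasmic tail, the adaptor GULP1. CD36 and MSR1 are scavenger receptors for modified lipoproteins and other debris. SIRPα works the other way: when it binds CD47 on a healthy cell, it recruits the phosphatases SHP-1 and SHP-2 and restrains engulfment.

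Total counts ranged from 27025270 to 35213711 in the cKO libraries and from 27016173 to 35707304 in the WT libraries. Srgap2, the check of the labels, was at 272 ± 55.0 CPM in cKO (SD, n = 4) and 788 ± 165 CPM in WT (SD, n = 3), a log2 fold change of −1.53 (SE 0.17, edgeR quasi-likelihood adjusted p = 0.00525). CPM here are counts scaled to TMM-adjusted library sizes. The summed level of 12 microglial markers was from 53395 to 61897 CPM in cKO and from 62683 to 65170 CPM in WT, with Csf1r the highest. Among the 12, the test was passed by Tmem119, the driver of the Cre, which averaged 3707 CPM across cKO and 6557 CPM across WT libraries (adjusted p = 0.0459). Without Tmem119 the sum was from 50390 to 57813 CPM in cKO and from 56515 to 57957 CPM in WT, which overlap, and 5 of the 12 markers had the higher mean in cKO.

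None of the engulfment genes passed the test between cKO and WT microglia. Of the 10, 9 passed the filter on low counts and were tested by edgeR's quasi-likelihood method, and 0 reached an adjusted p under 0.05, against 0.359% of the 11991 genes tested (0.317% higher and 0.0417% lower in cKO). Their smallest unadjusted p was 0.0806, that of Gas6, so 0 were under 0.05 unadjusted, against 16.5% of all genes tested (9.65% higher and 6.87% lower). DESeq2 and limma-voom with sample quality weights also called 0 of the 9. None passed with a term for Xist, offsets for GC content and length, a replicate block or a block for the mouse-number run, fits in which 8.81%, 5.37%, 2.4% and 1.42% of all genes passed. Their median log2 fold change was 0.0065, with 5 above 0 and 4 below, and that of all genes tested was −0.012. In 2 of the 9, Gas6 and Sirpa, the groups did not overlap, which was the case for 16.1% of all genes tested (8.86% higher and 7.2% lower in cKO). In RNA from a sorted population, fewer cells of a type and less RNA per cell cannot be told apart.

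**Figure D1:**
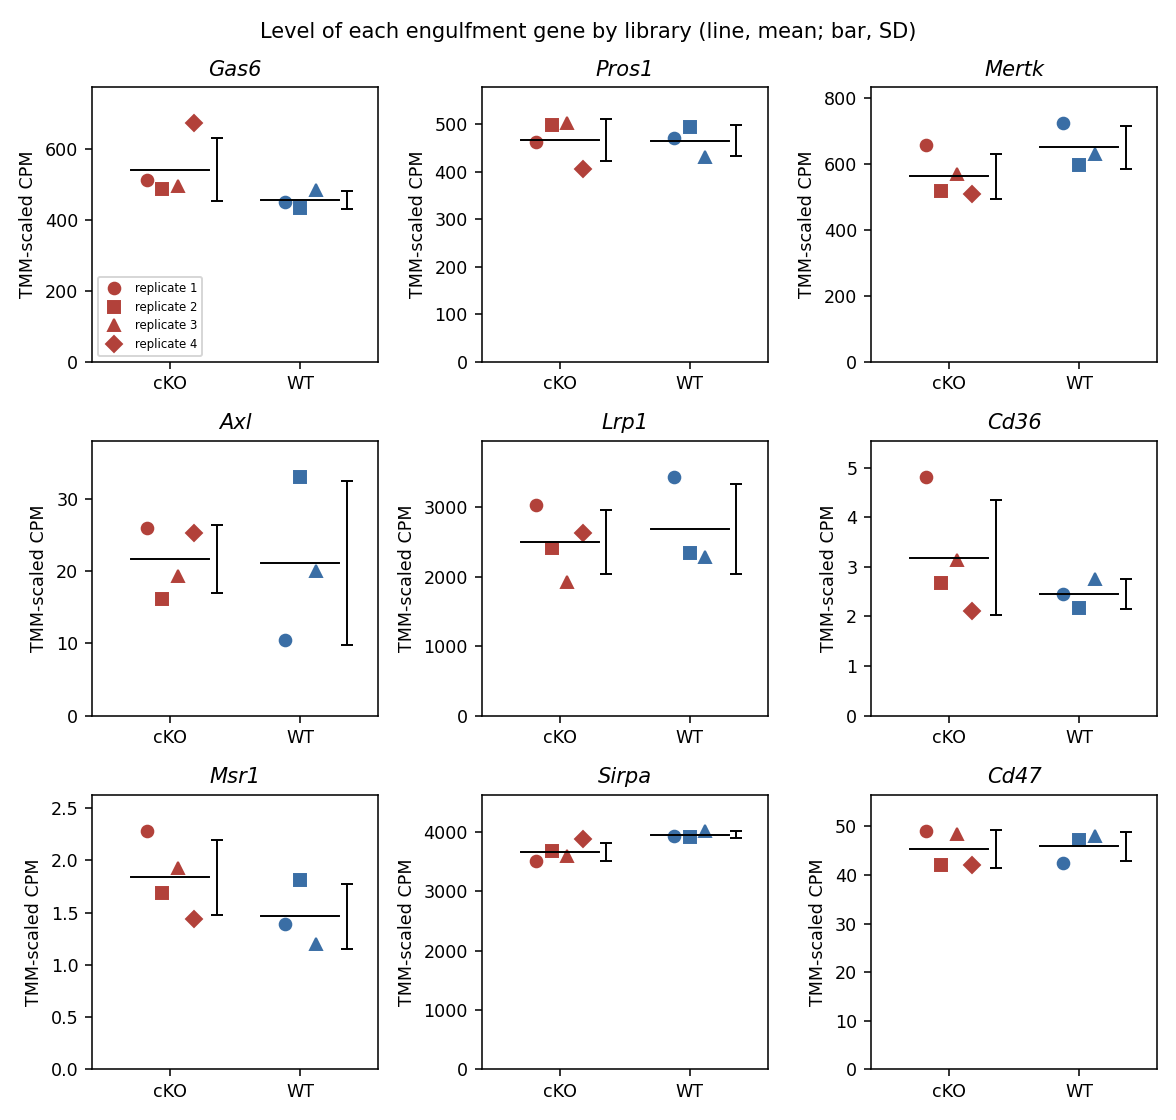
Level of each of the 9 engulfment genes tested, as TMM-scaled CPM on a linear axis from 0, in the 4 cKO (red) and 3 WT (blue) libraries; symbols mark the replicate, lines the mean and bars the SD. Gas6 lay higher in every cKO library (488 to 674 CPM) than in every WT library (434 to 485 CPM), Sirpa lay lower (3520.3 to 3880.0 against 3913 to 4028 CPM), and the groups overlapped for the other 7 genes.

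The TAM ligands were abundant, and Gas6 was the ligand with the larger difference. The cKO replicates 1 to 4 had 513, 488, 495 and 674 CPM of Gas6, and the WT replicates 1 to 3 had 452, 434 and 485 CPM. Every cKO library was above every WT library, but cKO replicate 2 exceeded WT replicate 3 by little, and cKO replicate 4 stood well above the other cKO libraries. Means were 543 ± 88.1 CPM for cKO (SD, n = 4) and 457 ± 25.7 CPM for WT (SD, n = 3). The log2 fold change was 0.25 (SE 0.13, 95% interval −0.035 to 0.53, adjusted p = 0.365), and without cKO replicate 4 it was 0.13. As a percentage of WT, that interval is −2.43% to 44.6%.

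The means of Pros1, the gene of the other ligand, differed by less than the spread in either group. In cKO replicates 1 to 4, Pros1 stood at 464, 498, 502 and 407 CPM, and in WT replicates 1 to 3 at 472, 494 and 431 CPM. The groups overlapped over most of their range, with cKO replicate 4 the lowest. Means were 468 ± 44.2 CPM for cKO (SD, n = 4) and 466 ± 32.0 CPM for WT (SD, n = 3). Its log2 fold change was 0.0065 (SE 0.11, 95% interval −0.24 to 0.25, adjusted p = 0.985), or −15.1% to 18.8% as a percentage of WT.

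The ligands stood furthest apart in cKO replicate 4. The ratio of Gas6 to Pros1, each as CPM per kb of transcript, came to 1.44, 1.27, 1.28 and 2.15 for cKO replicates 1 to 4, and to 1.24, 1.14 and 1.46 for WT replicates 1 to 3. That library holds the highest Gas6 and the lowest Pros1 of the 7. In the other 3 cKO libraries the ratio was within the WT range. The ratio of Gas6 to its receptor Mertk, picked after its values were seen and so not tested, came to 1.32, 1.59, 1.47 and 2.24 in the cKO libraries and to 1.05, 1.23 and 1.30 in the WT libraries.

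Mertk, the receptor kinase that clears apoptotic cells, had the lower mean in cKO but did not pass the test. Levels of Mertk were 657, 518, 569 and 508 CPM for cKO replicates 1 to 4, set against 724, 597 and 630.0 CPM for WT replicates 1 to 3. Of the cKO libraries, 3 were below every WT library, and cKO replicate 1 lay among the WT values. Means were 563 ± 67.7 CPM for cKO (SD, n = 4) and 651 ± 66.1 CPM for WT (SD, n = 3). Its log2 fold change was −0.21 (SE 0.12, 95% interval −0.47 to 0.058, adjusted p = 0.424), an interval of −28.0% to 4.13% as a percentage of WT. With log2 CPM of Xist as a covariate, which separates 4 libraries with Xist from 3 without it, the log2 fold change was −0.28 and the adjusted p 0.111. With 1 library left out it ran from −0.31 without cKO replicate 1 (adjusted p = 0.162) to −0.12 without WT replicate 1 (adjusted p = 0.688).

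Axl, the TAM kinase linked to inflammation, varied more among the WT mice than any other engulfment gene tested. The cKO replicates 1 to 4 had 26.0, 16.2, 19.3 and 25.3 CPM of Axl, and the WT replicates 1 to 3 had 10.4, 33.1 and 19.98 CPM. All cKO libraries lay between the lowest and the highest WT library. Means were 21.7 ± 4.77 CPM for cKO (SD, n = 4) and 21.2 ± 11.4 CPM for WT (SD, n = 3), with a coefficient of variation of 22.0% in cKO and 53.8% in WT. Counting error would give 3.93% and 3.83%, so the spread exceeded counting error. The log2 fold change was 0.035 (SE 0.31, 95% interval −0.65 to 0.72, adjusted p = 0.972), and leaving out WT replicate 1 or WT replicate 2 gave −0.29 or 0.50. Without WT replicate 3, cKO replicate 1 or cKO replicate 4 it was −0.0059, −0.077 or −0.050. As a percentage of WT the interval is −36.3% to 64.8%, so a sizeable difference either way is not excluded.

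Mertk made up nearly all TAM receptor RNA in both groups. Per kb of transcript it was 96.1%, 96.9%, 96.6% and 95.1% of the sum of Mertk, Axl and Tyro3 for cKO replicates 1 to 4, and 98.5%, 94.6% and 96.8% for WT replicates 1 to 3. Mertk exceeded Axl per kb by 19.9 to 31.8 times in cKO and by 17.9 to 69.0 times in WT. Tyro3, the other kinase of the family, known mainly from neurons, had 9 to 19 counts per cKO library and 12 to 18 per WT library, and its log2 fold change was −0.046 (SE 0.39, adjusted p = 0.971).

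**Figure D2:**
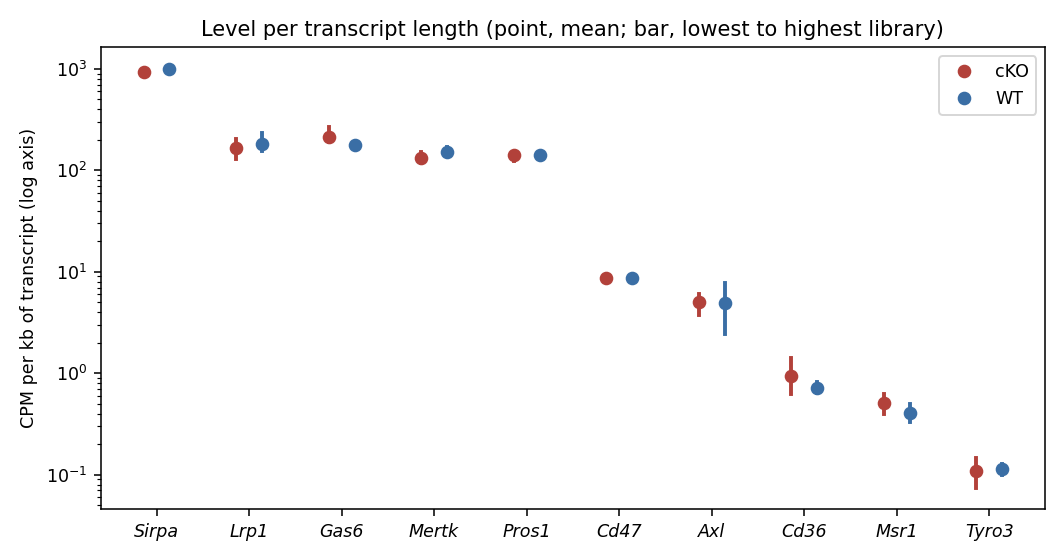
Level per transcript length of the 9 engulfment genes tested and Tyro3, as CPM per kb on a log axis, ordered by the WT mean; points are means and bars run from the lowest to the highest library, cKO (red, n = 4) left of WT (blue, n = 3). Sirpa stood highest at 922 CPM per kb in cKO and 995 in WT, then Lrp1, Gas6, Mertk and Pros1 lay close together, and Cd36, Msr1 and Tyro3 were below 1.5 in every library.

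Lrp1, the endocytic receptor, had group means closer than the spread between libraries. In cKO replicates 1 to 4, Lrp1 stood at 3022, 2409, 1920.5 and 2625 CPM, and in WT replicates 1 to 3 at 3435, 2338 and 2283 CPM. WT replicate 1 had the highest value and cKO replicate 3 the lowest, while the other 2 WT libraries lay below the other 3 cKO libraries. Means were 2494 ± 459 CPM for cKO (SD, n = 4) and 2685 ± 649 CPM for WT (SD, n = 3). The log2 fold change was −0.11 (SE 0.18, 95% interval −0.50 to 0.28, adjusted p = 0.821). Without WT replicate 1 it was 0.11, without cKO replicate 3 it was 0.00028, and with offsets for GC and length it was 0.057. The reference transcript of Lrp1 is the longest of the 10 (14888 bases) and has the highest GC content (57.9%).

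Gulp1, the adaptor of the LRP1 tail, was at the detection limit. There was 1 count in cKO replicate 1 and 0 in the other 6 libraries, so it was not tested and no fold is given. A count of 0 allows up to 3 counts, or 0.0919 to 0.109 CPM in the cKO libraries and 0.0837 to 0.110 CPM in the WT libraries, for counting error only.

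The scavenger receptors Cd36 and Msr1 were scarce. Levels of Cd36 were 4.81, 2.67, 3.13 and 2.11 CPM for cKO replicates 1 to 4, set against 2.45, 2.16 and 2.76 CPM for WT replicates 1 to 3. cKO replicate 1 stood above all others, and cKO replicate 4 was the lowest of the 7 libraries. Means were 3.18 ± 1.16 CPM for cKO (SD, n = 4) and 2.46 ± 0.302 CPM for WT (SD, n = 3), with a log2 fold change of 0.37 (SE 0.28, 95% interval −0.25 to 0.99, adjusted p = 0.565). Without cKO replicate 1 the log2 fold change was 0.084. A level up to 99.1% higher than in WT lies within the interval.

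The cKO replicates 1 to 4 had 2.29, 1.69, 1.93 and 1.44 CPM of Msr1, and the WT replicates 1 to 3 had 1.39, 1.81 and 1.20 CPM. The groups overlapped, with cKO replicate 1 again the highest. Means were 1.84 ± 0.360 CPM for cKO (SD, n = 4) and 1.47 ± 0.312 CPM for WT (SD, n = 3), with a log2 fold change of 0.32 (SE 0.28, 95% interval −0.28 to 0.93, adjusted p = 0.610). Without cKO replicate 1, WT replicate 3 or WT replicate 2 it was 0.19, 0.195 or 0.50. From 47 to 66 counts per cKO library and 38 to 57 per WT library lay behind these values. Counting error alone gives a coefficient of variation of 13.6% in cKO and 14.7% in WT, against 19.6% and 21.3% observed.

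Border-associated macrophages, the macrophages of meninges and vessels, also express scavenger receptors, and their markers were present. All 11 markers of the list were detected, with a summed level of 147, 89.7, 127 and 79.0 CPM for cKO replicates 1 to 4, and of 86.5, 125 and 102 CPM for WT replicates 1 to 3. The highest were Mrc1, at a mean of 50.8 CPM over the 7 libraries, and Cd163, at 12.4 CPM, and 0 of the 11 passed the test. Among the cKO libraries Cd36 and Msr1 had the same order as this sum, with replicate 1 highest, then 3, 2 and 4. Axl did not: it was second highest in cKO replicate 4, which had the lowest sum. Counting error in cKO was 10.4% for Cd36 and 13.6% for Msr1, so their order in replicates 3, 2 and 4 is uncertain. Among the WT libraries Axl and Msr1 were highest in the library with the highest sum, replicate 2, and Cd36 was lowest there. The part of these cells in the 3 genes was not tested.

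Markers of other cell types that the sort could have let through were also detected, the oligodendrocyte list at a higher sum than the border macrophage list in every library. The astrocyte list summed to between 90.0 and 143 CPM in cKO and between 135 and 143 CPM in WT, of which Slc1a3 made up 106 CPM on average, while Gfap averaged 1.61 CPM and Aqp4 0.262 CPM. Endothelial and mural markers summed to between 53.4 and 72.7 CPM in cKO and 68.1 and 76.3 CPM in WT, with Pecam1 at 63.4 CPM on average and Cldn5, Slco1a4, Ly6c1 and Rgs5 at 0 in all libraries. Neuronal markers summed to at most 15.5 CPM in a cKO library and 13.2 CPM in a WT library, and markers of monocytes and neutrophils to at most 13.7 CPM in a cKO library and 13.5 CPM in a WT one, with Retnlg at 0. Oligodendrocyte markers reached 332 CPM in cKO and 257 CPM in WT, led by Cnp and Mbp, with Olig2 at 0 in cKO and at most 0.0731 CPM in WT. Lymphocyte markers reached 61.7 CPM in cKO and 55.3 CPM in WT, nearly all of it Cd79b.

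Sirpa, the inhibitory receptor, was the most abundant of the engulfment genes per kb, and its cKO values lay below its WT values without passing the test. In cKO replicates 1 to 4, Sirpa stood at 3520.3, 3684, 3603 and 3880.0 CPM, and in WT replicates 1 to 3 at 3940.3, 3913 and 4028 CPM. The groups did not overlap, though cKO replicate 4 came close to WT replicate 2. Means were 3672 ± 154 CPM for cKO (SD, n = 4) and 3960.4 ± 59.9 CPM for WT (SD, n = 3). The log2 fold change was −0.11 (SE 0.099, 95% interval −0.33 to 0.11, adjusted p = 0.636), an interval of −20.2% to 7.78% as a percentage of WT. The coefficient of variation, 4.19% in cKO and 1.51% in WT, was the smallest of the 9 genes in either group.

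Cd47, which encodes the ligand of SIRPα and is also made by microglia themselves, had group means closer than the spread in either group. Levels of Cd47 were 49.1, 42.1, 48.3 and 42.0 CPM for cKO replicates 1 to 4, set against 42.5, 47.2 and 48.1 CPM for WT replicates 1 to 3. Both groups spread over nearly the same range. Means were 45.4 ± 3.88 CPM for cKO (SD, n = 4) and 45.9 ± 2.99 CPM for WT (SD, n = 3). Its log2 fold change was −0.017 (SE 0.11, 95% interval −0.26 to 0.23, adjusted p = 0.963). Per kb of transcript Sirpa exceeded Cd47 by 94.5 to 122 times in cKO and by 109 to 122 times in WT.

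**Figure D3:**
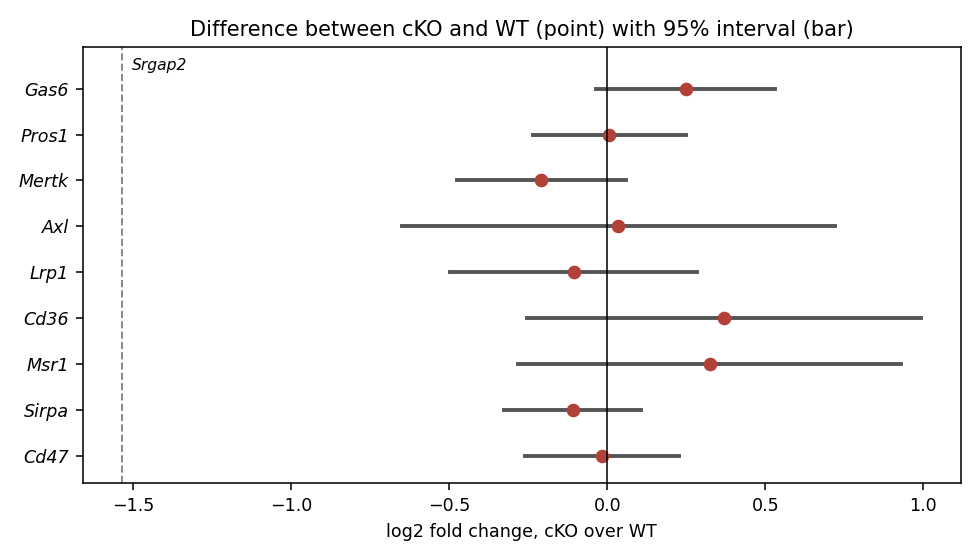
Log2 fold change of cKO over WT for the 9 engulfment genes tested (points) with the 95% interval from the edgeR fit (bars); the dashed line marks Srgap2 at −1.53. All 9 intervals include 0, the narrowest being those of Sirpa, Pros1 and Cd47 and the widest those of Axl, Cd36 and Msr1.

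The order of the genes per kb of transcript was nearly the same in both groups. Sirpa was first at 922 ± 38.7 CPM per kb in cKO and 995 ± 15.0 in WT. Gas6 averaged 213 ± 34.6 in cKO and 179 ± 10.1 in WT, and Lrp1 168 ± 30.8 in cKO and 180.4 ± 43.6 in WT. The ranges of these 2 overlapped in each group, so their order is not resolved. The same holds for the pair of Mertk, at 131 ± 15.7 in cKO and 151 ± 15.4 in WT, and Pros1, at 142 ± 13.4 in cKO and 141 ± 9.69 in WT. Lrp1 also overlapped Mertk in both groups and Pros1 in cKO. Below a gap came Cd47, at 8.65 ± 0.739 in cKO and 8.74 ± 0.569 in WT, and Axl, at 5.09 ± 1.12 in cKO and 4.96 ± 2.67 in WT, and below these Cd36 and Msr1, whose ranges overlapped in cKO.

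The mouse numbers in the labels fall into an earlier run (cKO replicates 1 and 2, WT replicate 1) and a later run (cKO replicates 3 and 4, WT replicates 2 and 3), and the direction of some genes differed between them. The log2 ratio of mean CPM for Gas6 was 0.15 in the earlier and 0.35 in the later run, that of Mertk −0.30 and −0.19, and that of Sirpa −0.13 and −0.086. For Gas6 and Sirpa, whose groups did not overlap, any split of the libraries keeps the direction. Mertk, whose groups overlapped, also kept its direction in both runs. Axl did not: the ratio was 1.02 in the earlier run, where cKO averaged 21.1 CPM and WT had 10.4 CPM, and −0.25 in the later run, where cKO averaged 22.3 CPM and WT 26.5 CPM. Pros1 and Cd47 also differed in sign, with ratios of 0.028 and −0.0255 for Pros1 and 0.10 and −0.076 for Cd47. For Lrp1 it was −0.34 and −0.024, for Cd36 0.61 and 0.092, and for Msr1 0.52 and 0.16. The earlier run holds 1 WT library. Earlier and later here mean lower and higher mouse numbers, and the labels do not say what the runs stand for.

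By Xist, the RNA of the inactive X chromosome, the libraries also fall into 4 with it (cKO replicates 2 and 4, WT replicates 2 and 3) and 3 without (cKO replicates 1 and 3, WT replicate 1). Xist was at 69.4 and 144 CPM in these cKO libraries and 243 and 127 CPM in these WT libraries, and at most 0.658 CPM in the other 3. Gas6 was higher in cKO in both sets (log2 ratios 0.34 and 0.16), which is fixed since its groups did not overlap. Mertk was lower in both (−0.26 and −0.24). Lrp1 was 0.12 in the libraries with Xist and −0.47 in those without, and Cd36 −0.039 and 0.70. Axl was −0.36 in the libraries with Xist and 1.12 in those without, and Cd47 −0.18 and 0.20. WT replicate 1 is the only WT library without Xist and also the only one of the earlier run. Both splits thus divide the WT libraries alike, and a sex difference, the run and that animal cannot be told apart here.

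The rest of the engulfment pathway was taken from 7 lists that hold 98 further genes, of which 89 were tested. Of these, 1 rose, 0 fell and 88 did not pass, against 0.317% higher and 0.0417% lower over all genes tested. In all, 15 had an unadjusted p under 0.05 by edgeR, 16.5% being the share over all genes. Their median log2 fold change was −0.0078, with 44 above 0. The groups did not overlap for 7 of these genes higher and 6 lower in cKO, against 8.86% and 7.2% of all genes tested. Among those named below, Rab7, Rac1, Becn1 and Rab5a were higher, and Ggcx, Megf11, Scarb2, Xkr8, Xkr9 and Pik3r4 lower, without overlap. The gene that rose was Rab7, the GTPase of late endosomes and maturing phagosomes. The cKO replicates 1 to 4 had 124, 131, 130.0 and 121 CPM of Rab7, and the WT replicates 1 to 3 had 79.9, 84.2 and 90.2 CPM, without overlap. Its log2 fold change was 0.58 (SE 0.10, adjusted p = 0.0398). Rab7 no longer passed without cKO replicate 2, cKO replicate 3 or any 1 WT library (adjusted p from 0.105 to 0.265), with log2 fold changes from 0.54 to 0.63. In those fits only 4 to 10 of all genes tested passed. It passed in 12 of the 17 alternative settings.

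**Figure D4:**
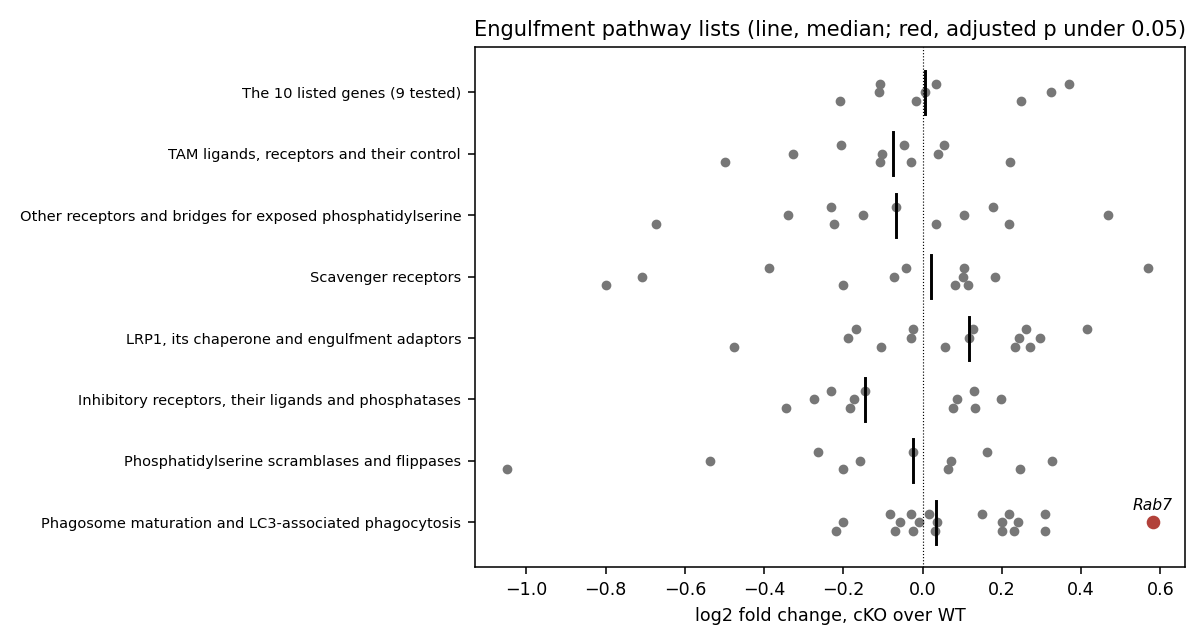
Log2 fold change of cKO over WT for the engulfment genes tested (top row) and for the other genes of the 7 pathway lists; each point is a gene, black lines are list medians, and red marks an adjusted p under 0.05. Medians run from −0.14 for the inhibitory receptors to 0.12 for the LRP1 and adaptor list, and Rab7 is the one gene past the threshold.

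Among genes that act with the TAM kinases, 0 of 10 passed, with a median log2 fold change of −0.074. Socs1, a brake on cytokine signalling induced through TAM receptors, averaged 4.30 ± 0.621 CPM across cKO and 6.06 ± 1.51 CPM across WT libraries (SD, n = 4 and 3 here and for the genes that follow; log2 fold change −0.50, adjusted p = 0.271). Ggcx, the carboxylase that activates Gas6 and protein S, averaged 27.4 ± 1.06 CPM across cKO and 31.6 ± 0.843 CPM across WT libraries (log2 fold change −0.21, adjusted p = 0.361). The LXR genes Nr1h3 and Nr1h2, whose receptors are known to induce Mertk, had log2 fold changes of −0.33 and −0.11 (adjusted p = 0.613 and 0.690). Nr1h3 had 29 to 37 counts per cKO library and 38 to 57 per WT library.

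Of the other receptors and bridges for phosphatidylserine, 0 of 11 passed, with a median of −0.066. The integrin subunit Itgb3 averaged 162 ± 29.4 CPM across cKO and 205 ± 28.5 CPM across WT libraries (log2 fold change −0.34, adjusted p = 0.297), and the inhibitory phosphatidylserine receptor Cd300a averaged 170.3 ± 24.3 CPM across cKO and 199.9 ± 16.8 CPM across WT libraries (−0.23, adjusted p = 0.385). Ager and Cd300lf, also receptors for this lipid, had log2 fold changes of −0.67 and 0.47 (adjusted p = 0.307 and 0.484). Ager had 31 to 47 counts per cKO library and 53 to 80 per WT library. Cd300lf had 45 to 102 and 53 to 77. Of the other scavenger receptors, 0 of 12 passed, with a median of 0.020. The lysosomal Scarb2 averaged 279 ± 13.1 CPM across cKO and 321 ± 20.8 CPM across WT libraries (−0.20, adjusted p = 0.330). Megf11, Scarf1 and Scarf2, relatives of the engulfment receptor CED-1 of worms, had log2 fold changes of −0.71, −0.80 and −0.39 (adjusted p = 0.186, 0.304 and 0.302). Megf11 had 33 to 49 counts per cKO library and 65 to 73 per WT library. Scarf1 had 13 to 31 and 34 to 49.

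The list of LRP1 partners and engulfment adaptors had a median of 0.12, and 0 of 15 passed. Rac1, the GTPase that drives actin at the phagocytic cup, stood at 514, 577, 536 and 517 CPM for cKO replicates 1 to 4, set against 380, 413 and 414 CPM for WT replicates 1 to 3, without overlap. Its log2 fold change was 0.41 (SE 0.099, adjusted p = 0.101). Dock2, a Rac activator, and Dnm2, the dynamin that pinches membranes, had log2 fold changes of 0.29 and 0.24 (adjusted p = 0.240 and 0.297). Abca1, the lipid exporter, averaged 274 ± 68.3 CPM across cKO and 381 ± 55.0 CPM across WT libraries (−0.48, adjusted p = 0.205).

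Of the inhibitory receptors and phosphatases other than Sirpa, 0 of 11 passed, with a median of −0.14. Those with the smallest p were Lair1 (log2 fold change −0.18, adjusted p = 0.410), Lilrb3 (0.20, adjusted p = 0.564), Siglecg (−0.27, adjusted p = 0.613) and Siglece (−0.14, adjusted p = 0.621). Of the scramblases and flippases that set phosphatidylserine on the cell surface, 0 of 11 passed, with a median of −0.025. Xkr8, the scramblase that exposes this lipid in apoptosis, averaged 18.8 ± 2.71 CPM across cKO and 27.3 ± 0.797 CPM across WT libraries (−0.54, adjusted p = 0.119), without overlap. Xkr9, Plscr3 and Ano10 had log2 fold changes of −1.05, 0.33 and −0.26 (adjusted p = 0.209, 0.274 and 0.362). Xkr9 was near the floor, with 6 to 12 counts per cKO library and 18 to 22 per WT library.

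In the list of phagosome maturation and LC3-associated phagocytosis, 1 of 20 rose, Rab7, and 19 did not pass, with a median of 0.035. Becn1, a subunit of the lipid kinase complex that starts autophagy, averaged 72.4 ± 1.63 CPM across cKO and 58.4 ± 2.38 CPM across WT libraries (log2 fold change 0.31, adjusted p = 0.160). Rab5a, the GTPase of early endosomes, averaged 53.8 ± 5.995 CPM across cKO and 43.4 ± 2.74 CPM across WT libraries (0.31, adjusted p = 0.220). Pik3r4, another subunit of that lipid kinase complex, had a log2 fold change of −0.22 (adjusted p = 0.317). DESeq2 called 4 of the 89 pathway genes, Becn1, Rab7, Rac1 and Xkr8, against 4.49% of all genes, and voom with quality weights called 8, against 8%.

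The genes whose levels followed Mertk most closely over the 7 libraries were Wdr20a, Ankrd50 and Lrch1 (Pearson r 0.976, 0.975 and 0.972). Those closest to Axl were Cnih4, Bsdc1 and Wdr41 (0.956, 0.937 and 0.922). They were ranked among 8575 genes whose log2 CPM averaged 3 or more. With 7 libraries that differ in depth and may differ in base composition, such values are a description alone. None of the 6 passed the test between cKO and WT, with adjusted p from 0.475 to 0.982. In WT replicate 1, which had the least Axl, Cnih4, Bsdc1 and Wdr41 were also at their lowest, at 50.8, 77.4 and 38.5 CPM. These genes were picked for following Axl over the same libraries, so their low values there are no separate support.

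**Figure D5:**
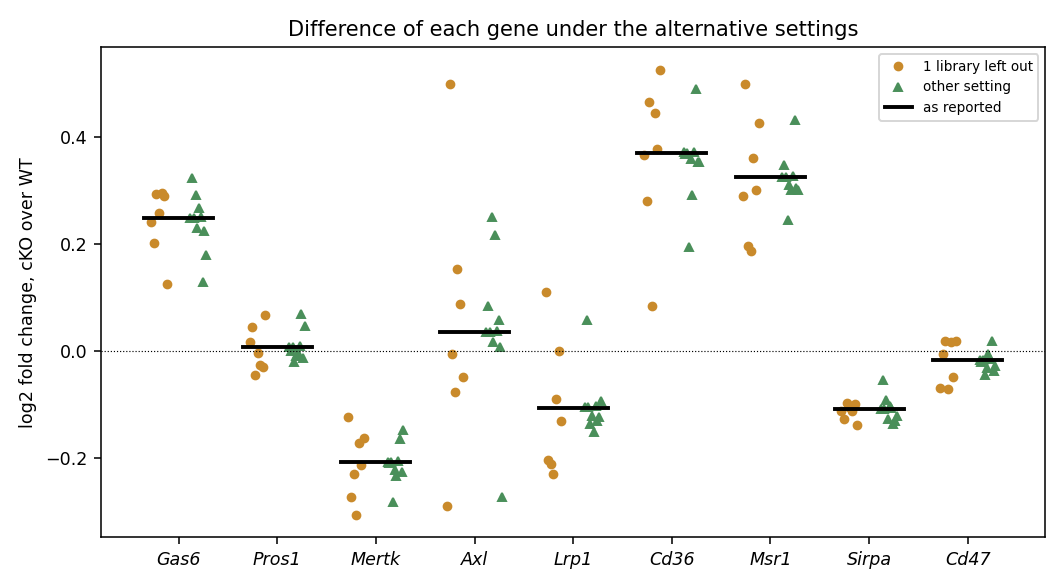
Log2 fold change of cKO over WT for each of the 9 engulfment genes as reported (black line), with 1 library left out (orange circles) and under the other settings (green triangles). Gas6, Cd36 and Msr1 stayed above 0 and Mertk and Sirpa below 0 throughout, while Axl ran from −0.29 to 0.50.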

How the data were processed

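The authors deposited 1 table of counts per gene for the 7 libraries, raw whole numbers. DRAGEN and GRCm39 are named per the submitters' processing notes, and no annotation, counting rule or strandedness is given in the sources used here. Per the labels' protocols, libraries were made from poly(A) RNA. Genes were filtered with filterByExpr (least count 10, least total count 15), scaled with TMM factors and tested with the robust quasi-likelihood F test of edgeR 4.0.16 (limma 3.58.1, R 4.3.3), cKO over WT with no covariate, with Benjamini-Hochberg adjustment over all 11991 genes and a threshold of 0.05. The standard error is the log2 fold change divided by the square root of F, and 95% intervals use the t distribution. The procedure was tested on simulated data. Each library is 1 mouse, so the p-values rest on differences among mice.

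The genes and lists were chosen with earlier results of these data known. Of 195 listed pathway and marker symbols, 193 were matched, 5 by a synonym. Up to 4 genes per pathway list are named, those past the threshold first, then by smallest p. Transcript lengths and GC content are those of the longest coding transcript in GENCODE M21, an annotation of another assembly. In a RefSeq gene table of GRCm38.p6, Gas6, Gulp1, Lrp1, Cd47 and Rab7 overlap other genes. Those with a row in the counts, Tmem255b and 4930521E06Rik, had 0 counts. Srgap2 overlaps Fam72a, which had at most 791 counts in a library. Alternatives included DESeq2 1.42.0.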

Additional observations from a re-analysis of the deposited data

Results flagged for a closer look

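Gas6 in cKO replicate 4 was far from the other cKO libraries: 674 CPM, against 488 to 513 CPM in the other 3. Its gap to the nearest library was 0.862 of the group's range, above Dixon's 95% critical value for 4 samples. It was the 1 such value among 38 sets of cKO values checked, where chance gives about 1 in 20.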

How the results depend on the processing

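None of the 9 engulfment genes passed in any of the 17 alternatives, in which their median log2 fold change ranged from −0.072 to 0.058 and the smallest adjusted p was 0.0705 (Gas6, GC content and length offsets). Mertk and Gas6 each had an unadjusted p under 0.05 with the Xist covariate and with those offsets, and Mertk also without cKO replicate 1. Pros1 turned to −0.013 with upper-quartile factors, −0.0087 with the 1 CPM filter, −0.0040 with the mouse-number run as a block, −0.021 with the Xist covariate and −0.00058 with the offsets; Axl to −0.27 with quality weights; Lrp1 to 0.057 with the offsets; and Cd47 to 0.018 with the replicate block. With 1 library left out, Pros1 ranged from −0.046 to 0.067, Axl from −0.29 to 0.50, Lrp1 from −0.23 to 0.11 and Cd47 from −0.072 to 0.018. Gas6, Mertk, Cd36, Msr1 and Sirpa kept their direction in all 17. The groups did not overlap for 1 gene, Sirpa, with RLE or upper-quartile factors (16.0% of all genes in each), and for 2 to 3 genes with 1 library left out (18.4% to 27.9% of all genes). Of the pathway genes, 4 of 89 passed with DESeq2 (4.49% of all genes did), 8 with quality weights (8%), 4 with the replicate block (2.4%), 5 with the Xist covariate (8.81%), 7 with the offsets (5.37%) and 0 to 2 with 1 library left out (0.0331% to 1.19%). Their median was 0.034 with the block, 0.023 with the offsets and from −0.033 to 0.019 with 1 library left out. The cause was not tested. Same-numbered libraries of the groups correlated in their deviations at 0.387, 0.069 and −0.173, and differently numbered ones at −0.368 to 0.375. With so few libraries per group, these values cannot decide whether the numbers pair the mice. With the block 288 of all genes passed, against 43 without it and 4 to 142 with 1 library left out. No WT library shares the number of cKO replicate 4, so under the block that library does not inform the difference. The log2 fold change of Gas6 was 0.13 both with the block and without cKO replicate 4. With 4 and 3 mice, differences within the intervals given are not excluded, and depth adds to the uncertainty for Cd36, Msr1 and Gulp1. The intervals are not detection limits, since a call needed an adjusted p under 0.05 over all genes tested. That of Rac1, 0.20 to 0.63, lay above 0, yet its edgeR adjusted p was 0.101.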
